A study of Mus musculus with 6 samples.

Results

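The genes described are 46 enzymes and partner proteins that write, read or erase DNA methylation and histone marks. They were taken from a list of gene names, and every probe that carries one of these names in the array files, or through its accession in RefSeq, was used. All 46 were on the array, among 34741 gene names in all, with 79 probes, of which 24 genes had 1 probe and 22 had between 2 and 4. The samples were 3 normal livers and 3 liver tumors of male C3H/HeN mice, all 74 to 75 weeks old, fed a standard diet and bred in the unexposed control group of a project on gestational arsenic. C3H mice develop liver tumors with age without any carcinogen, and by the study's methods the 3 tumors carried a Ha-ras mutation. RNA was taken from bulk tissue, so that fewer cells of a type and less RNA per cell cannot be told apart, and the labels do not say whether a tumor and a normal liver with the same number came from one mouse. Each RNA was hybridised to its own array, with the question of which genes differ between tumor and normal tissue.

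DNA methyltransferases add a methyl group to cytosine, mostly where a G follows. Dnmt1, guided by Uhrf1, copies the pattern onto the new strand after replication, while Dnmt3a and Dnmt3b set new marks, and the Tet enzymes oxidise the methyl group as a first step of its removal. Histone methyltransferases, demethylases, deacetylases and acetyltransferases change the tails of the proteins around which DNA is wound, and the Polycomb complex holds genes off through methylation of histone H3. Liver is also the main site where the body makes and uses the methyl donor of these enzymes, S-adenosylmethionine.

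Levels are given as expression values, the scanner's processed signal divided by the array's 75th percentile. A value of 1 is therefore a spot brighter than 75% of all spots, and values of different probes are not compared with each other. A probe was tested where all 3 arrays of one group or of both read it well above background, and it was called where the adjusted p of limma, Benjamini-Hochberg over all 24898 tested probes, was under 0.05. Where a gene is counted once, it is by its brightest tested probe. Each array had 62976 spots, 42.7% to 46.7% of which were well above background. All normal livers were on one slide and all tumors on the other, with a median local background of 42 to 45 and of 22 to 23, and the effect of the slide cannot be told apart from that of the tissue. Markers of hepatocytes overlapped between the groups, with a summed expression value of 7510 to 8250 in the normal livers and 7410 to 7880 in the tumors over 9 of 10 genes, albumin among them. Apoa1 was called higher and Tat and Asgr1 lower.

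Of the 46 genes, 42 had a tested probe, and 14 of these were called, 7 higher and 7 lower in the tumors. That is 33.3%, against 34.2% of the 18566 genes tested on the whole array, and 16.7% in each direction, against 13.1% of all genes higher and 21.0% lower. Over probes, 66 of 79 were tested and 20 called, 9 higher and 11 lower, or 30.3%, 13.6% and 16.7%, where the whole array gave 33.1%, 12.5% and 20.6%. The share of members called was thus near that of the array. Without probes with simple repeats, an alternative chosen after seeing the data and described further on, 10 of 40 member genes were called, 3 higher and 7 lower. The median log2 fold change was -0.02 over the members and -0.13 over all genes. With each array scaled to its spike-in controls in place of the percentile, the median of all tested probes moved from -0.13 to 0.05, and the member calls were then 7 higher and 3 lower, in place of 7 and 7. Over the whole array that scaling gave 3173 higher and 1971 lower in place of 3112 and 5126, and over the related genes described further on 24 higher and 13 lower in place of 26 and 32. The 4 genes without a tested probe were Dnmt3l, Mbd4, Hdac2 and Hdac9, each with a single probe that no array read well above background. Uhrf1 was the only gene that passed the filter through one group alone.

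**Figure D1:**
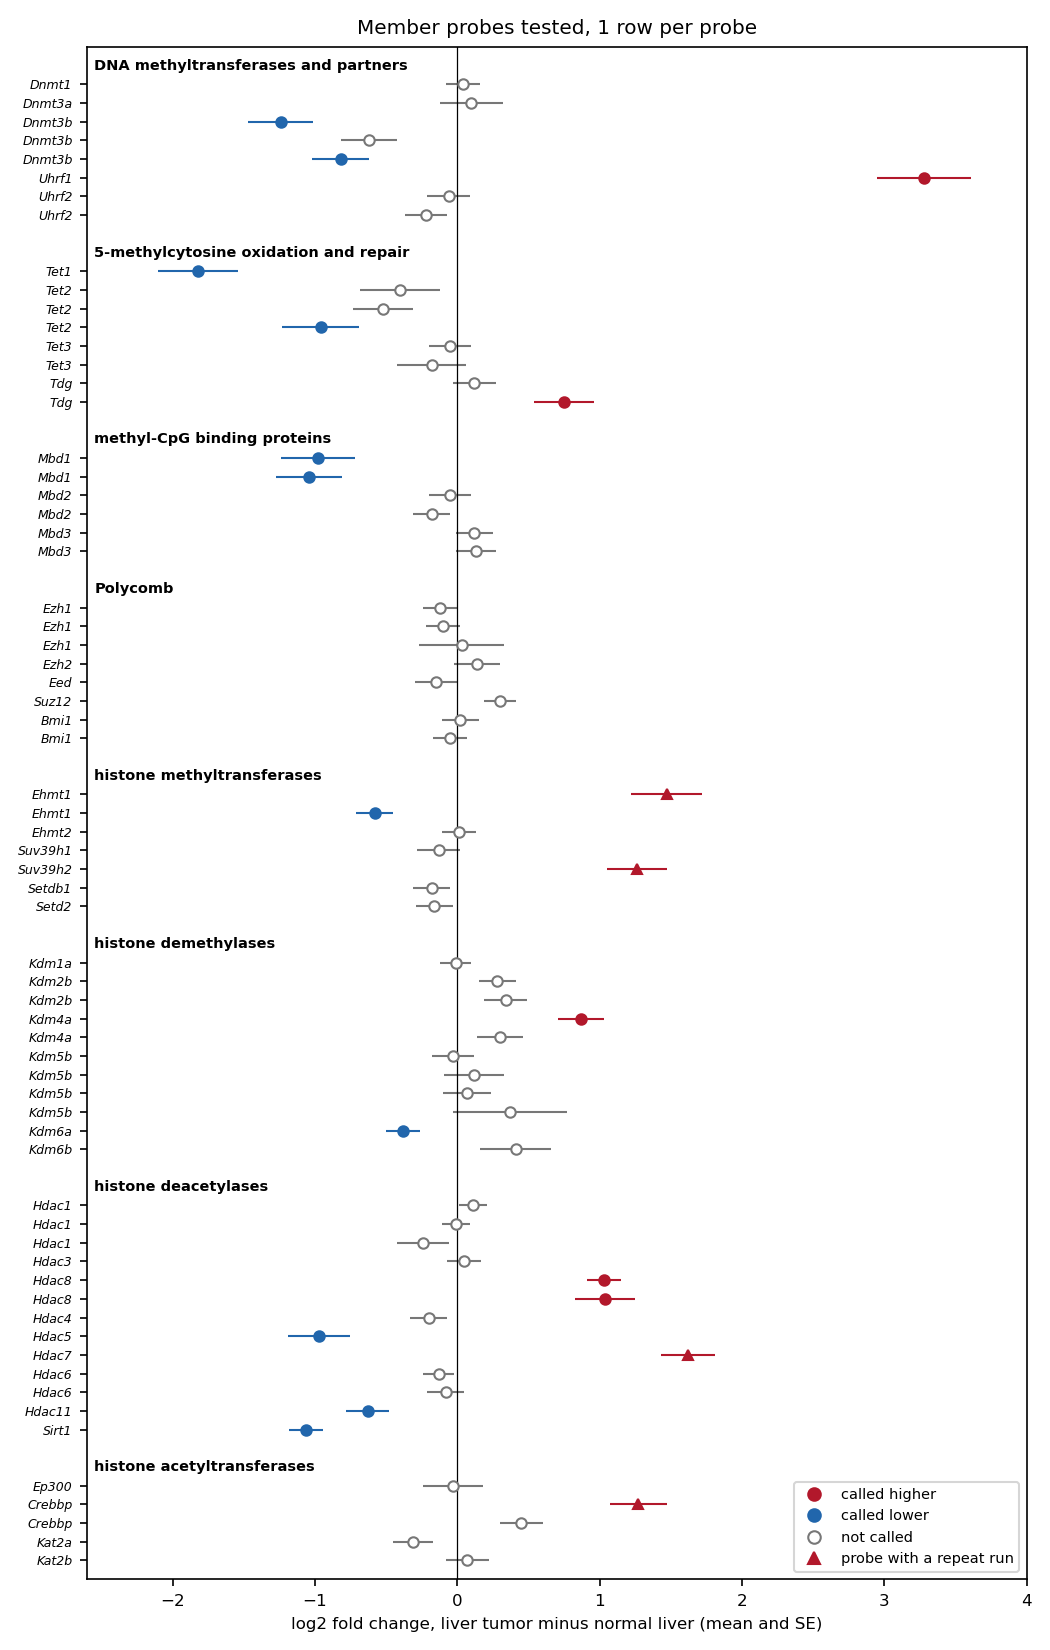
Log2 fold change of each of the 66 tested member probes, liver tumor minus normal liver, with its SE (n = 3 arrays in each group), grouped by what the genes do. Filled points were called at an adjusted p under 0.05, and triangles are the 4 probes with a long simple repeat. Uhrf1 at 3.28 and Tet1 at -1.82 lie farthest out, and no Polycomb probe was called.

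The probes whose values carry the account are shown here by a stretch from their middle, as the array files give it, so that a reader can place them. The positions are those of the array design on mm9.
Dnmt3b brightest probe (chr2:153513403-153513462): atgcccagagtttacctttctggttgatta
Dnmt3b dimmest probe (chr2:153512991-153513050): cccctagttcctcatgagaagctaggacca
Uhrf1 (chr17:56462770-56462829): ctaaaccatttactacaggcagactggaca
Tet1 (chr10:62276042-62276101): tgtcccctgcaggcttcctccgcagaaaca
Hdac8 brightest probe (chrX:99503070-99597969): aacgctatcctctgagatcccagatcatga
Hdac8 second probe (chrX:99700320-99700379): ctacccccggtttatatttacagtcccgag
The brightest Hdac8 probe spans 94900 bases of the genome with 60 bases of probe, so it lies across a splice junction, while the other probes lie in one piece.

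Among the DNA methyltransferases, Dnmt3b, on chromosome 2 (GRCm38.p6 153649411 to 153687730), fell and the others were not called. The brightest of its 3 probes read 5.08, 4.38 and 3.68 in the normal livers and 1.36, 2.30 and 1.98 in the tumors. All tumors lay under all normal livers, with a log2 fold change of -1.24 (SE 0.23), 2.37-fold lower, adjusted p of limma 0.00901. The dimmest probe fell by 0.82 on the log2 scale (SE 0.20, adjusted p of limma 0.0226). The remaining probe read 1.94 ± 0.37 in the normal livers and 1.26 ± 0.25 in the tumors (SD, n = 3), and the log2 fold change was -0.62 with an adjusted p of limma of 0.0537, just outside the threshold. Its groups did not overlap either. Without a filter on dim probes, with the spike-in scaling or without normal liver 1 or 2, the dimmest probe was no longer called, while the brightest was called under every setting of limma.

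Dnmt1, the maintenance enzyme, read 0.40, 0.44 and 0.42 in the normal livers and 0.44, 0.48 and 0.38 in the tumors, and the groups overlapped. Its log2 fold change was 0.04 (SE 0.12). Dnmt3a, the other enzyme that sets new marks, read 2.02 ± 0.26 in the normal livers and 2.20 ± 0.63 in the tumors (SD, n = 3), and the log2 fold change was 0.10 (SE 0.22), with tumor 1 the highest at 2.92. Dnmt3l, a catalytically inactive partner used in germ cells, was not detected on any array.

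Uhrf1, on chromosome 17 (56303337 to 56323486), recognises DNA that is methylated on one strand only and brings Dnmt1 to it. It showed the largest rise of the members. It read 0.0758, 0.173 and 0.175 in the normal livers and 1.14, 1.38 and 1.33 in the tumors. Every tumor was far above every normal liver, and normal liver 1 was not well above background. The log2 fold change was 3.28 (SE 0.33), 9.72-fold higher, adjusted p of limma 0.00138. The normal livers lay near background, and background correction by normexp with an offset of 50 gave 1.45 on the log2 scale. A second Uhrf1 probe was not detected well above background. Uhrf2, its paralog, had a pair of tested probes with log2 fold changes of -0.06 and -0.22, neither called.

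The rise of Uhrf1 came beside that of the cell division genes. Of 20 genes of proliferation, 18 were tested and 17 were called, all higher, and 7 of them passed the filter through the tumors alone. Ccnb1, the mitotic cyclin, was well above background in the tumors alone and at least 13-fold higher there by its brightest probe. Its other probes were at least 1.46-fold higher, called, and at least 1.36-fold higher, not tested. Top2a, the replicating cell's topoisomerase, was at least 3.74-fold higher. Plk1, a mitotic kinase, rose by 4.75 (SE 0.37), with 1 of 3 normal livers well above background. Mki67, the marker of cycling cells, read 0.261 ± 0.056 in the normal livers and 4.73 ± 1.30 in the tumors (SD, n = 3), and the log2 fold change was 4.16 (SE 0.26, adjusted p of limma 0.000254). Mcm2, a part of the replicative helicase, rose by 2.10 (SE 0.25). Pcna, the sliding clamp of replication, was at 0.01 (SE 0.10), with 11.2 in both groups, and was the one tested gene of the list that was not called. The summed level of the list was 18.9 to 21.6 in the normal livers and 52.4 to 68.3 in the tumors, and its part in the Uhrf1 result was not tested.

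Replication genes are known targets of the E2F factors, and the promoters of the members were searched for their motif. RefSeq promoter windows of GRCm38.p6, from 250 bases before to 50 bases after the start, matched 41 of 46 genes with 58 windows. Common forms of the E2F motif, TTTGGCGC, TTTCCCGC and TTTCGCGC, were looked for on both strands. They were in 4 of the 58 windows (6.9%), in 606 of all 32851 windows (1.84%) and in 4 of 18 windows of the proliferation list (22.2%). Each form contains CG. The median number of CpG was 23 in the member windows, 24.5 in those of proliferation and 7 in all windows. The part of CpG content in these shares was not tested. The 4 members were Dnmt1, Ezh2, Suz12 and Uhrf1, and the stretch around the first match of each is given 5′ to 3′ along the gene, with the match in capitals.
Dnmt1 (chr9:20952824-20952853, minus strand): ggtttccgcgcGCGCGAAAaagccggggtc
Ezh2 (chr6:47595009-47595038, minus strand): gggttgctgcgTTTGGCGCtcggtccggtc
Suz12 (chr11:79992876-79992905, plus strand): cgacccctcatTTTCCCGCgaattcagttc
Uhrf1 (chr17:56304117-56304146, plus strand): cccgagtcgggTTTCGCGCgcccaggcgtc
Of these 4 genes, only Uhrf1 was called. The log2 fold change was 0.04 for Dnmt1, 0.14 for Ezh2 and 0.30 for Suz12. A match describes letters in a window and is not a binding site. No promoter window was given for Hdac1, Hdac3, Kdm6b, Mbd1 and Mbd2.

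Of the enzymes that oxidise 5-methylcytosine, Tet1, on chromosome 10 (62804570 to 62887469), fell. Its tested probe read 2.08, 2.34 and 2.07 in the normal livers and 0.40, 0.64 and 0.88 in the tumors. The groups were apart, and the tumors ranged more widely than the normal livers. The log2 fold change was -1.82 (SE 0.28), 3.53-fold lower, adjusted p of limma 0.00519. The other Tet1 probes were not tested, since one was well above background on 1 normal and 1 tumor array and the other on none.

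Tet2 had 3 tested probes, all with a lower mean in the tumors. The brightest read 1.59, 2.37 and 1.24 in the normal livers and 0.97, 1.49 and 1.41 in the tumors, and the groups overlapped, with a log2 fold change of -0.40 (SE 0.28, adjusted p of limma 0.309). The next was at -0.52 (SE 0.21, adjusted p of limma 0.106). Only the dimmest was called, at -0.96 (SE 0.27, adjusted p of limma 0.0387), and it was well above background in 1 of 3 tumors. Normexp gave -0.35, and this call was lost in 9 of 14 other settings of limma, among them without normal liver 1 or 2 or tumor 1 or 3. Tet3 was at -0.05 and -0.18 in a pair of tested probes, neither called.

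Tdg, the glycosylase that cuts out the oxidised base, was at 0.12 (SE 0.15) by its brightest probe, which was not called. A dimmer probe rose by 0.75 (SE 0.21, adjusted p of limma 0.0347), from 0.139 ± 0.039 in the normal livers to 0.228 ± 0.019 in the tumors (SD, n = 3). It shares 29 bases with a probe of another gene name and was well above background on 1 of 3 normal arrays. Normexp gave 0.03, and the call was lost in 10 of 14 other settings of limma, among them each left-out array except normal liver 3. Mbd4, another glycosylase, was not detected.

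Among the methyl-CpG binding domain proteins Mbd1, Mbd2 and Mbd3, Mbd1 fell in both of its probes. The brighter read 5.99, 5.38 and 9.87 in the normal livers and 3.08, 3.14 and 4.29 in the tumors, and the log2 fold change was -0.98 (SE 0.26, adjusted p of limma 0.0307). The dimmer read 0.888, 0.659 and 1.15 against 0.364, 0.419 and 0.510, a log2 fold change of -1.04 (SE 0.23, adjusted p of limma 0.0175). In both, normal liver 3 was the highest, tumor 3 was the highest of the tumors and the groups did not overlap. Without normal liver 1, without tumor 2 or without a filter on dim probes, neither probe was called. The brighter was also lost without tumor 1, at -0.90, and with the spike-in scaling, at -0.80. Mbd2, at -0.05 and -0.18, and Mbd3, the subunit of the NuRD complex, at 0.12 and 0.13, were not called.

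**Figure D2:**
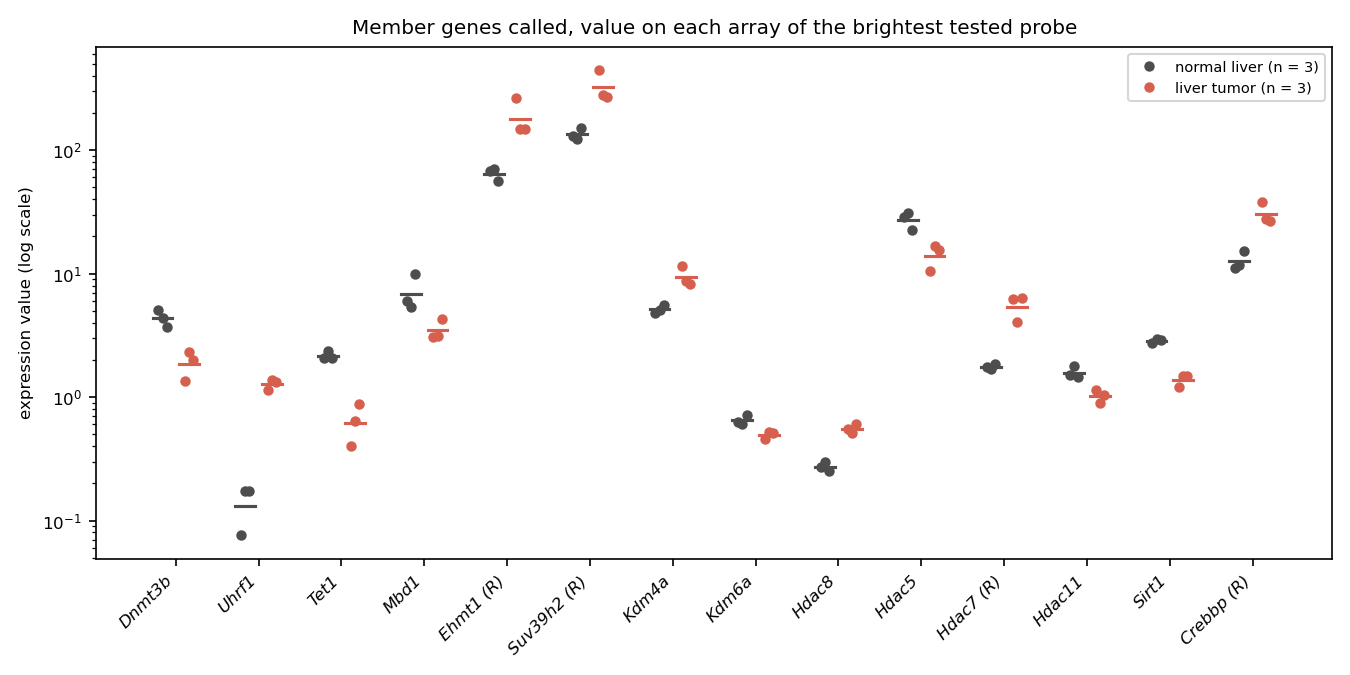
Expression value, on a log scale, of the 14 called member genes on each array, by the brightest tested probe. Grey points are the 3 normal livers and red points the 3 liver tumors, in the order of their numbers, and bars are geometric means. (R) marks a probe with a long simple repeat. In all 14 genes the groups do not overlap, and Uhrf1 shows the widest gap.

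No gene of the Polycomb group was called among 5 tested, where 34.2% of all genes were. Ezh2, which methylates histone H3 at lysine 27, read 0.685, 0.627 and 0.702 in the normal livers and 0.662, 0.915 and 0.661 in the tumors. Tumor 2 was above all normal livers and the other tumors were among them, and the log2 fold change was 0.14 (SE 0.16). Ezh1, which takes that role in cells that do not divide, was at -0.12 (SE 0.12) by its brightest probe. Eed, which reads the mark, was at -0.15 (SE 0.15), and Bmi1, of the complex that ubiquitinates histone H2A, at 0.02 (SE 0.13). Suz12, which holds the complex together, read 1.98, 2 and 1.85 in the normal livers and 2.58, 2.31 and 2.32 in the tumors. Its groups were apart by a small step, with a log2 fold change of 0.30 (SE 0.11) and an adjusted p of limma of 0.0697.

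Among 22 other Polycomb genes, 20 were tested, and 4 were called higher and 3 lower, or 35% called, against 34.2% of all genes. With the spike-in scaling 3 were called higher and 2 lower, the latter Pcgf3 and Rbbp4. Pcgf2, a RING finger partner, rose by 1.66 (SE 0.29, adjusted p of limma 0.00787), with 2 of 3 normal livers well above background, and by its second probe was at least 1.53-fold higher. Pcgf3 was well above background in all normal livers and in no tumor, and was at least 1.86-fold lower (adjusted p of limma 0.0111). The others called were Phc2, Aebp2 and Rbbp7, higher, and Ring1, lower. Rbbp4, a histone chaperone that Polycomb shares with deacetylase complexes, read 37.6, 35.5 and 44.3 in the normal livers and 18.3, 20.4 and 24.9 in the tumors. It was lower in every tumor, by 0.89 on the log2 scale (SE 0.16, adjusted p of limma 0.00829), and its second probe fell by 1.20.

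The histone methyltransferases gave 2 calls among 6 tested genes, and both rested on probes with simple repeats. Suv39h2, which methylates histone H3 at lysine 9, read 130, 124 and 152 in the normal livers and 443, 281 and 270 in the tumors, and the log2 fold change was 1.26 (SE 0.21, adjusted p of limma 0.00724). Its other probe was not detected. Ehmt1, which puts the lighter mark on the same residue, read 68.0, 70.5 and 56.1 in the normal livers and 262, 147 and 149 in the tumors, and the log2 fold change was 1.47 (SE 0.25, adjusted p of limma 0.00698). Its other probe was called in the opposite direction. That probe read 4.81, 5.03 and 5.82 in the normal livers and 3.76, 3.52 and 3.20 in the tumors, and the log2 fold change was -0.58 (SE 0.13, adjusted p of limma 0.0164). Ehmt1 was the only member whose tested probes were called in opposite directions. The fall was not called with the spike-in scaling, at -0.40, or without a filter on dim probes, and the mean of both probes, 0.45, was not called. On mm9 the probe that rose lies at chr2:24646395-24646454 and the probe that fell at chr2:24646765-24646824.

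Of the other members called higher, Hdac7 and Crebbp have such probes too, while Uhrf1, Kdm4a and Hdac8 do not. The stretches that hold the repeats are shown, with the longest unbroken repeat in capitals.
Suv39h2 (chr2:3373186-3373245): gtgtgtgtcTGTGTGTGTGTGTtgcttact
Ehmt1 (chr2:24646395-24646454): GTGTGTGTGTGagtgtgtgtgactcttcta
Hdac7 (chr15:97623208-97623267): atttgtgtgtaTGTGTGTGTatgagtgcgt
Crebbp (chr16:4084710-4084769): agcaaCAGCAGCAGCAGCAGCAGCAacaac
The longest run of alternating G and T was 13 letters in the Suv39h2 probe, 11 in the Ehmt1 probe and 9 in the Hdac7 probe, and the Crebbp probe holds a run of 20 letters of repeated AGC. The middle of the Ehmt1 probe that fell is shown for comparison, and its longest run of this kind was 3 letters.
Ehmt1 probe that fell (chr2:24646765-24646824): atgatgaataaactcgtttgttttttacca

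Over the whole array, calls moved with such runs. Of 23675 tested probes whose longest GT run was 5 letters or fewer, 11.8% were called higher in the tumors. The share was 14.9% at 6 to 8 letters, 58.1% at 9 to 11, 93.0% at 12 to 14 and 100% of 79 probes at 15 or more, where the median log2 fold change was 1.28. The 7 probes with an AGC run of 15 letters or more were all called higher as well, with a median of 1.43. Probes with an AC run of 15 letters or more went the other way, with 37 of 39 called lower and a median of -1.52. The 6 probes with a CTG run of 15 letters or more were all called lower too, with a median of -1.02. In each of these long-run classes every probe was of a different gene. The median probe with a GT run of 15 or more stood above the normal mean by 1.69 in tumor 1, 1.04 in tumor 2 and 1.06 in tumor 3 on the log2 scale. The member probes gave 1.72, 1.06 and 1.0 for Suv39h2, 2.02, 1.19 and 1.21 for Ehmt1, 1.61, 1.13 and 1.08 for Crebbp and 1.81, 1.19 and 1.84 for Hdac7, so tumor 1 was the highest in all but Hdac7. Without tumor 1, 98.7% of the probes with the longest GT runs were still called higher. The part of the repeats in these 4 calls was not tested. An alternative chosen after seeing the data left out 215 tested probes. These were all that hold a GT run of at least 9 or an AGC run of at least 15 letters. Then 10 of 40 tested member genes were called, 3 higher and 7 lower, and Ehmt1 was represented by the probe that fell. Of 62 tested member probes 15 were called, 5 higher and 10 lower. The whole array gave 8007 of 24683 probes, 2922 higher and 5085 lower.

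**Figure D3:**
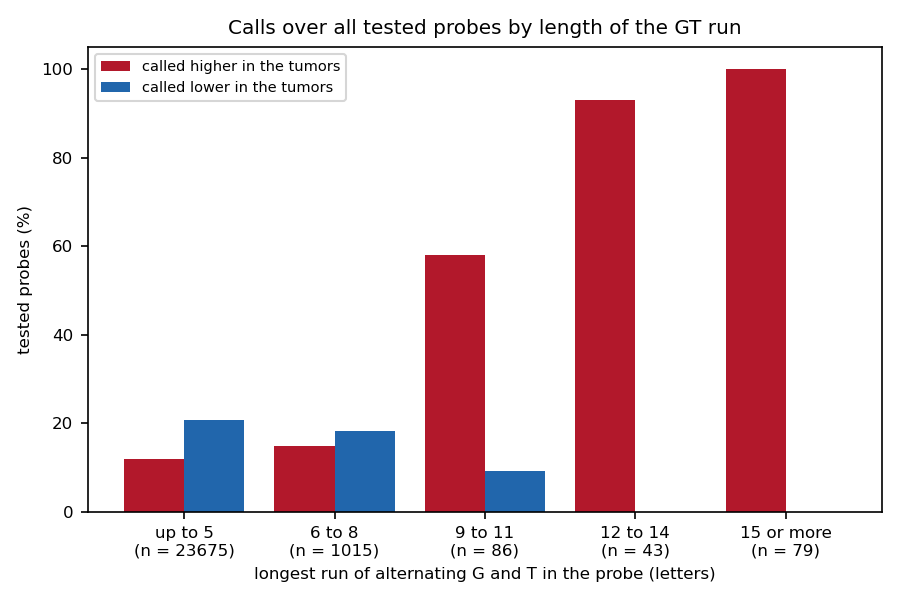
Share of all tested probes called higher (red) or lower (blue) in the tumors, by the longest run of alternating G and T in the probe, with the number of probes under each bin. The share called higher goes from 11.8% in the shortest bin to 100% in the longest.

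Of the histone methyltransferases without such repeats, Ehmt2 was at 0.01 (SE 0.12), with 50.8 ± 3.8 in the normal livers and 51.0 ± 4.1 in the tumors (SD, n = 3). Suv39h1 was at -0.13 (SE 0.15), Setdb1, which silences retroelements, at -0.18 (SE 0.13), and Setd2, which marks gene bodies at lysine 36 of histone H3, at -0.16 (SE 0.13). None was called. Of 27 other histone methyltransferases, 26 were tested, and 5 were called, all lower, of which Nsd3 alone was called with the spike-in scaling. Nsd3, a lysine 36 methyltransferase, fell by 1.12 on the log2 scale (SE 0.25) and Setdb2 by 0.83 (SE 0.21). The other Nsd3 probes were at -1.37, called, and -0.89, not called, and the second Setdb2 probe was at -1.04, not called. Kmt5b, a lysine 20 methyltransferase of histone H4, fell by 0.60 (SE 0.17). For Kmt5b the call rests on its brightest probe, since its other probes were at 0.04, 0.21 and 0.04. Kmt2c and Smyd2 were the remaining genes called. The 19.2% lower among these genes stood beside 21.0% of all genes.

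Of 6 histone demethylases, Kdm4a rose and Kdm6a fell. Kdm4a, which takes methyl groups from lysine 9 and lysine 36 of histone H3, read 4.81, 5.10 and 5.53 in the normal livers and 11.6, 8.76 and 8.21 in the tumors. Every tumor was higher, with tumor 1 the highest, a log2 fold change of 0.87 (SE 0.16, adjusted p of limma 0.00906). Its second, dimmer probe was at 0.30 (SE 0.16) and not called. Kdm6a, which removes the Polycomb mark, read 0.622, 0.608 and 0.717 against 0.458, 0.518 and 0.514, a log2 fold change of -0.38 (SE 0.12, adjusted p of limma 0.0496). That call was at the edge of the threshold and was lost in 13 of 16 other settings of limma. Kdm1a was at -0.01 (SE 0.11), Kdm2b at 0.28 (SE 0.13), Kdm5b at -0.03 (SE 0.15) and Kdm6b at 0.41 (SE 0.25), none called. The Kdm1a probe shares 22 bases with a probe named by a region of chromosome 2 and 21 with a probe of Nuak2.

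Of 16 other demethylases, 14 were tested, with 2 called higher and 2 lower, or 28.6% called, against 34.2% of all genes. With the spike-in scaling none was called lower. Kdm4b, the close paralog of Kdm4a, read 5.48, 5.16 and 4.87 in the normal livers and 13.3, 10.4 and 9.69 in the tumors. It rose in every tumor, by 1.09 (SE 0.15, adjusted p of limma 0.00362). Kdm3a, a lysine 9 demethylase, rose by 0.65 (SE 0.12), Kdm4c fell by 0.47 on the log2 scale (SE 0.13), and the other gene called lower was Kdm1b.

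The deacetylases had 5 calls among 9 tested genes (55.6%, against 34.2% of all genes), 2 higher, one of them on a repeat probe, and 3 lower. Hdac8, on the X chromosome (102284638 to 102505381), is a class I enzyme that also deacetylates cohesin. Its brightest probe read 0.271, 0.300 and 0.250 in the normal livers and 0.548, 0.514 and 0.608 in the tumors. Its second probe read 0.142, 0.151 and 0.232 against 0.349, 0.391 and 0.317. The groups were apart in both, with log2 fold changes of 1.03 (SE 0.12, adjusted p of limma 0.00253) and 1.04 (SE 0.21, adjusted p of limma 0.0125). Hdac8 and Mbd1 were the members with all of several tested probes called in the same direction. Both Hdac8 probes were dim, the second well above background on 1 of 3 normal arrays, and normexp gave 0.42 and 0.26, the second of which was not called. Hdac7, a class IIa enzyme, rose by 1.62 (SE 0.19, adjusted p of limma 0.00243), from 1.74, 1.69 and 1.85 in the normal livers to 6.18, 4.02 and 6.30 in the tumors, by the probe with the repeat shown.

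Sirt1, a deacetylase that depends on NAD, read 2.74, 2.96 and 2.90 in the normal livers and 1.20, 1.48 and 1.47 in the tumors. The normal livers lay close together and all tumors were well under them, with a log2 fold change of -1.06 (SE 0.12), 2.08-fold lower, adjusted p of limma 0.00227. Hdac5, a class IIa enzyme that shuttles between nucleus and cytoplasm, read 28.9, 30.7 and 22.6 in the normal livers and 10.4, 16.6 and 15.6 in the tumors, and the log2 fold change was -0.97 (SE 0.22, adjusted p of limma 0.0176). Hdac11, the one class IV enzyme, fell by 0.63 on the log2 scale (SE 0.15, adjusted p of limma 0.0201). With the spike-in scaling Hdac5 was at -0.79 and Hdac11 at -0.46, and neither was called, while Sirt1 was called under every setting of limma. Neither was called without a filter on dim probes. Hdac5 also lost its call without normal liver 1, at -0.92, or 2, at -0.88, and Hdac11 without normal liver 2, at -0.54, or tumor 2, at -0.53.

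The other deacetylases were not called. Hdac1, of the class I complexes, read 12.5, 11.9 and 12.5 against 13.3, 12.5 and 13.9 by its brightest probe, a log2 fold change of 0.11 (SE 0.10). Hdac3 was at 0.05 (SE 0.12), Hdac4 at -0.20 (SE 0.13) and Hdac6, which acts on tubulin, at -0.13 (SE 0.11). Hdac2 and Hdac9 were not detected. Of 7 deacetylases outside the list, 4 were called, all lower, or 57.1% where the array had 21.0%, and with the spike-in scaling only Sirt3 was called. Sirt3, of the mitochondria, read 60.3, 68.7 and 68.4 in the normal livers and 21.7, 27.3 and 32.6 in the tumors. It was lower in every tumor, by 1.29 on the log2 scale (SE 0.17, adjusted p of limma 0.00329). Sirt7, of the nucleolus, fell by 0.82 (SE 0.11), with its other probes at -0.64 and -0.67, both called. Hdac10 fell by 0.60 (SE 0.14), and its second probe was at -0.34 and not called. The remaining gene called was Sirt2.

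The acetyltransferases had 1 call among 4 genes, that of Crebbp. Its bright probe, with the AGC repeat, read 11, 11.7 and 15.3 in the normal livers and 38.2, 27.5 and 26.5 in the tumors, and the log2 fold change was 1.27 (SE 0.20, adjusted p of limma 0.00538). Its dim probe, without such a run, was at 0.45 (SE 0.15, adjusted p of limma 0.0561), with 0.154, 0.197 and 0.182 against 0.265, 0.212 and 0.251. Ep300, its paralog, was at -0.03 (SE 0.21), Kat2a at -0.31 (SE 0.14) and Kat2b at 0.07 (SE 0.15). Of 9 other acetyltransferases 1 was called (11.1%, against 34.2% of all genes). This was Naa60, which acetylates protein ends at the Golgi and fell by 1.02 on the log2 scale (SE 0.12). Of 16 corepressor subunits 2 were called (12.5%), and none with the spike-in scaling. Mta3 rose by 0.45 (SE 0.12) in the brightest of its 3 tested probes, the only one called. Chd3, an ATPase of the NuRD complex, fell by 0.69 on the log2 scale (SE 0.10).

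Genes of the methyl donor and cofactor list, which holds enzymes that use the donor beside those that supply it, were mostly called lower. All 18 were tested, 12 were called lower and 1 higher, or 66.7% lower where the array had 21.0%, with a median log2 fold change of -0.76 against -0.13 over all genes. With the spike-in scaling 7 were called lower, Gnmt, Ahcy and Nnmt among them, and 1 higher. Gnmt, the glycine methyltransferase that uses up surplus S-adenosylmethionine in hepatocytes, read 480, 600 and 521 in the normal livers and 69.9, 132 and 173 in the tumors. Ahcy, which clears the inhibitory product of all methyl transfers, S-adenosylhomocysteine, read 38.0, 45.3 and 45.1 against 6.91, 12.7 and 13.3. Both were far lower in every tumor, with tumor 1 the lowest. Their log2 fold changes were -2.19 (SE 0.33, adjusted p of limma 0.00479) and -2.02 (SE 0.26, adjusted p of limma 0.00321), and the other probes of Ahcy were at -1.88 and -2.14. Nnmt, which methylates nicotinamide, read 1.59, 2.40 and 1.42 against 0.136, 0.228 and 0.239, a log2 fold change of -3.17 (SE 0.29, adjusted p of limma 0.000904), with 2 of 3 tumors well above background. Mat1a fell by 1.46 on the log2 scale (SE 0.18), while Mat2a, at 0.02, and Mat2b, at 0.15, were not called. Ahcyl1, Bhmt, Pemt, Idh1, Idh2, D2hgdh and Adhfe1 were among the other genes called lower. Acly, which makes acetyl-CoA from citrate and is named because it was the one gene of the list called higher, rose from 69.4 ± 11.4 to 160 ± 19.9 (SD, n = 3), and the log2 fold change was 1.21 (SE 0.17).

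**Figure D4:**
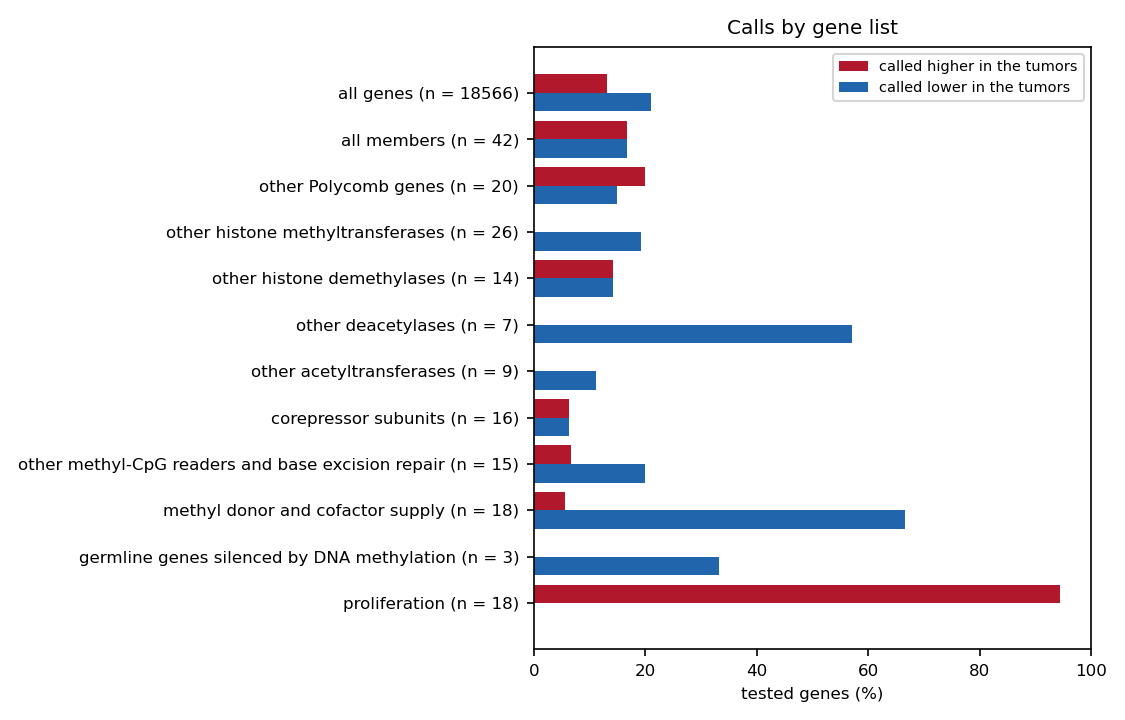
Share of tested genes called higher (red) or lower (blue) in the tumors, for all genes, the members and each related list, with the number of tested genes. The members lie near all genes, the methyl donor list has 66.7% called lower and the proliferation list 94.4% called higher.

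Of 15 other readers of methylated CpG and base excision repair genes, 1 was called higher and 3 lower. That is 26.7% called, against 34.2% of all genes, and with the spike-in scaling none was called lower. The riser, Ung, the uracil glycosylase, was read by a probe with a GT run of 34 letters, from 223 ± 15 to 510 ± 123 (SD, n = 3), and the log2 fold change was 1.17 (SE 0.18). Xrcc1, the repair scaffold, fell by 0.56 on the log2 scale (SE 0.12) and Smug1, another uracil glycosylase, by 0.51 (SE 0.12). The ligase Lig3 was the other gene called lower. Of 14 germline genes that DNA methylation keeps silent in other tissues, 3 were tested and none was called higher. Sycp3, of the meiotic chromosome axis, read 0.399, 0.495 and 0.416 in the normal livers and 0.0607, 0.190 and 0.180 in the tumors. It passed the filter through the normal livers alone, with 2 of 3 tumors well above background, and its log2 fold change of -1.77 (SE 0.44, adjusted p of limma 0.0243) rests partly on a tumor value under detection. The other 11 germline genes were not well above background on all 3 arrays of either group.

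Markers of other cells of the liver moved as well. Of 10 macrophage and Kupffer cell markers 7 were called lower (70%, against 21.0% of all genes), 4 with the spike-in scaling. Their summed level was 111 to 190 in the normal livers and 57.8 to 95.0 in the tumors. Of 9 stellate cell and fibroblast markers 4 were called lower and 2 higher, or 66.7% called, against 34.2% of all genes. With the spike-in scaling 2 were called lower and 3 higher. Dcn held 89.9% of the summed level of these markers in the normal livers. Dcn fell from 83.2 ± 11.5 to 27.8 ± 9.95 (SD, n = 3), while the other 8 markers summed to 7.24 to 11.3 in the normal livers and 11.6 to 16.7 in the tumors. Of 8 endothelial markers 2 were called lower (25%, against 21.0% of all genes), while with the spike-in scaling none was called lower and 1 higher. Of 10 lymphocyte markers 5 were tested and 1 was called higher (20%, against 13.1% of all genes), and 2 with the spike-in scaling. The one called, Cd4, rose from 59.5 ± 1.23 to 184 ± 50.8 (SD, n = 3). The remaining tested lymphocyte markers summed to 7.38 to 9.26 and 7.48 to 9.62, while Cd3d, Cd3g, Cd8a and Ms4a1 were among those not tested. No marker of neutrophils or cholangiocytes was called, with 5 tested of each. The part of these cells in the results of the members was not tested. For any single gene, the exact permutation test of 3 against 3 arrays, two-sided, cannot give a p under 0.1.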

How the data were processed

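Cy3-labelled RNA of 3 normal livers and 3 liver tumors was hybridised to 1-colour Agilent SurePrint G3 Mouse GE arrays. For each array the authors deposited Feature Extraction output (version 10.7.3.1 in the file headers, 12.0.3.1 in the submitters' processing notes), whose processed signal is an intensity after background subtraction and spatial detrending. They also deposited a table of the same signal as a ratio to each array's 75th percentile. It was used as an alternative, and every column belonged to a sample.

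Each processed intensity was divided by the 75th percentile of its array, taken over all spots, and put on the log2 scale. Control and outlier spots were left out, spots of a probe were averaged, and 24898 of 55681 probes were tested, those that all 3 arrays of one group or of both read well above background. The test was fitted across all of them with limma 3.58.1 (lmFit, eBayes) in R 4.3.3, two-sided, Benjamini-Hochberg threshold 0.05. In 12 of these probes, none of a member, the value of an array was missing because its spot was flagged. The fit was tested on simulated data. Tables and figures used Python 3.11.15, pandas, numpy, scipy and matplotlib. Probes were named through RefSeq of GRCm38.p6 by accession (27235), symbol (3581) or synonym (565), otherwise by the array's design (24300), and promoter sequences are from the same RefSeq release. The number of arrays limits the precision, and the labels do not say that the samples of a group came from separate mice, so p-values measure only the spread between these samples. For a probe that no array of a group read well above background, "at least" marks a bound set by the lowest detected signal of each array of that group.

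The members and the related lists were chosen with earlier results of these data known. All members and their probes are named, as are the up to 3 called genes of each related list with the largest change, and Mki67, Top2a, Pcna and Mcm2. Normal and tumor arrays with the same number were not taken as pairs, since the labels do not say that they came from the same mouse. The correlations of their deviations from the group means were 0.07, 0.13 and 0.05. For arrays with different numbers they ran from -0.14 to 0.055. Deviations of 3 arrays from their own mean are not independent, so these values cannot decide on pairing. Alternatives were normexp, quantile and spike-in scaling, the deposited table, no filter and a stricter one, eBayes with a trend, the replicate block, the methods' t-test unpaired and paired, the mean of a gene's probes, leaving out each array and, added later, leaving out probes with simple repeats.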

Additional observations from a re-analysis of the deposited data

How the results depend on the processing

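The member counts, 14 genes and 20 probes, moved by less than 1.5 times under normexp, quantile normalization, the deposited table, the stricter filter, a trended eBayes and gene values averaged over probes. Leaving out probes with simple repeats was chosen after seeing the data. It called 15 of 62 member probes, 10 of 40 member genes, 57 of 145 genes of the related lists and 8007 of 24683 probes in all. With the spike-in scaling 13 member probes, 37 genes of the related lists and 5144 probes in all were called, against 20, 58 and 8238, and of the related genes 24 were called higher and 13 lower, against 26 and 32. Without a filter on dim probes these counts were 11, 36 and 4674, with 55681 probes to adjust over. The methods' t-test, unpaired and after adjustment, called 10 member probes, 8 member genes and 5261 probes. In its paired form (replicate block) it called 0 member probes, 0 member genes, 0 genes of the related lists and 0 probes, while 7418 probes, 7 member probes, 7 member genes and 59 related genes had an unadjusted p under 0.05. With limma and the replicate block, 15 member probes, 12 member genes, 50 related genes and 7020 probes were called, and same-numbered arrays had correlations of 0.07, 0.13 and 0.05 in their deviations from the group means. Leaving out each array in turn gave 14 to 20 member probes and 11 to 13 member genes, 37 to 54 related genes and 4954 to 7172 probes in all, with the lowest of the last pair of counts without normal liver 2. No called probe changed its direction under any alternative, but without probes with simple repeats Ehmt1 turned from 1.47 by its bright probe to -0.58 by the other, and both were called. The replicate block lost the calls of Kdm6a, Hdac11 and the dimmest probes of Dnmt3b, Tet2 and Tdg. Of the 20 called member probes, 9 were called under every setting of limma that could test them. These were the probes of Uhrf1, Tet1, Suv39h2, Kdm4a, Hdac7, Sirt1 and Crebbp and the brightest ones of Dnmt3b and Hdac8. Those of Suv39h2, Hdac7 and Crebbp hold a simple repeat, so the setting without such probes could not test them. Signals near background limit the size of the changes in Uhrf1 and Hdac8 and of the dimmest Tet2 and Tdg probes.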
